A study of Homo sapiens with 5 samples.

Results

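The nuclear-encoded subunits of the oxidative phosphorylation system were taken as the protein-coding genes of the GENCODE v44 annotation whose names start with NDUFA, NDUFB, NDUFC, NDUFS, NDUFV, UQCR, COX4, COX5, COX6, COX7, COX8 or ATP5, together with SDHA, SDHB, SDHC, SDHD, CYC1 and CYCS. Assembly factors named NDUFAF and hyphenated readthrough genes were left out. The rule found 90 genes, with 678 annotated transcripts, among the 61220 genes of the tables. Complex I had 37 of them, complex II 4, complex III 10, complex IV 19 and complex V 19, and CYCS, which encodes the electron carrier cytochrome c, stood alone. NDUFA4, NDUFA4L2 and COX7A2L were counted with complex IV. The names also bring in ATP5IF1, an inhibitor of the ATP synthase, and UQCRHL, a near copy of UQCRH.

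Oxidative phosphorylation takes place in the inner mitochondrial membrane. Complexes I and II pass electrons from NADH and succinate to ubiquinone, complex III passes them to cytochrome c, and complex IV, cytochrome c oxidase, hands them to oxygen. Complexes I, III and IV pump protons, and complex V, the ATP synthase, uses the returning protons to make ATP. Most subunits are encoded in the nucleus and imported, and a few core subunits of complexes I, III, IV and V are encoded in mitochondrial DNA, so each of these complexes draws on both genomes.

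Mixtures of RNA from a pair of cell lines were measured. NCI-H1975 and HCC827 are established human lung adenocarcinoma lines, grown apart in the same medium, with no treatment named. Polyadenylated RNA of each line carried synthetic spike-in RNAs, mix A in NCI-H1975 and mix B in HCC827. A single RNA preparation of each line was used, and the pair was mixed by mass to contain 0, 25, 50, 75 or 100% HCC827 RNA. Each mixture gave 1 library of PCR-amplified cDNA read on a nanopore instrument, and libraries are called by their ratio with NCI-H1975 first, from 100:0, which is NCI-H1975 alone, through 75:25, 50:50 and 25:75 to 0:100, which is HCC827 alone. The design asks which transcripts differ between the 2 RNAs and whether the mixtures lie between the pure libraries. The labels give neither genotype nor age, and each line stands for 1 tumour. In the 0:100 library all 3092629 reads were human although its label names mix B, while 2926775 of the 2932250 reads at 100:0 were.

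The 5 libraries held 2932250 to 4058751 reads, and 312429 reads in all fell on the subunit genes. The read-weighted mean transcript length fell along the series from 2579 to 2180 bases, and mitochondrially encoded genes took 5.64% of reads at 100:0 and 8.85% at 0:100. Of 6 epithelial markers, 5 rose along the series (edgeR slope test, as below), with a summed level of 5638 CPM (scaled reads, as below) at 100:0 and 16086 at 0:100. Fibroblast markers summed to 190 and 7.59, nearly all of it COL1A1 and COL1A2, with DCN at 0 in every library. Endothelial markers had at most 13 reads in any library, and of 5 immune markers 3, among them PTPRC, were at 0 throughout.

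Promoters of 6 of the subunit genes are shown because these genes are among those that moved most in their complexes and stand on both sides of the comparison: CYCS and NDUFA5 were higher in NCI-H1975, and COX5B, COX6B1, UQCRH and ATP5MC2 in HCC827. Each runs from 250 bases before to 30 bases after the RefSeq start, 5′ to 3′ on the strand of the gene, from the GRCh38.p14 promoter table. Capitals mark, on either strand, the letters GCGCATGC (the motif of nuclear respiratory factor 1, NRF1), CCGGAAG (an ETS motif, the family of the GABP factor) or GGGGCGGGG (an SP1 motif). All 3 factors are textbook regulators of respiratory chain genes.
CYCS (chr7:25125231-25125510, minus strand): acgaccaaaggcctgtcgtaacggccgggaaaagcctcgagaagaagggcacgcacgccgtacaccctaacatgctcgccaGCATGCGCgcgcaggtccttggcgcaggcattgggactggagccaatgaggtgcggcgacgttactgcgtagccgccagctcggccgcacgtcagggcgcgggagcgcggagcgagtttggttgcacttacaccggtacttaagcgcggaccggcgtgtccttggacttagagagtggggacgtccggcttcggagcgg
NDUFA5 (chr7:123557789-123558068, minus strand): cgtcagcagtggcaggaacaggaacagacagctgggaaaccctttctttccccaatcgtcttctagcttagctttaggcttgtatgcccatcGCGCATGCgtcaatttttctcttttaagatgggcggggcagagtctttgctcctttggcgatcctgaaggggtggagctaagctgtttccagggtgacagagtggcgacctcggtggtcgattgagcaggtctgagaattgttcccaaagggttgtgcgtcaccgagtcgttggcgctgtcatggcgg
COX5B (chr2:97645812-97646091, plus strand): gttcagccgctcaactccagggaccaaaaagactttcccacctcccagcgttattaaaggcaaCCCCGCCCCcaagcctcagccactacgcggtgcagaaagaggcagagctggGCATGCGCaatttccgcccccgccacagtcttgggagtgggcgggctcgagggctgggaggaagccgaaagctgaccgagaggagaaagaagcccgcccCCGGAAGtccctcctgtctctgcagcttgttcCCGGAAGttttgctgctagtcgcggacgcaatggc
COX6B1 (chr19:35648073-35648352, plus strand): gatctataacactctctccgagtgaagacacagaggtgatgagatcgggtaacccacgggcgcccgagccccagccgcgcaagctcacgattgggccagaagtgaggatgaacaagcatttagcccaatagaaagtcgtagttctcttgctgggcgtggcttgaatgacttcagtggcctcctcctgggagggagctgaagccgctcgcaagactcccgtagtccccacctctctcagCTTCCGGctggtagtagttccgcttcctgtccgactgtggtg
UQCRH (chr1:46303448-46303727, plus strand): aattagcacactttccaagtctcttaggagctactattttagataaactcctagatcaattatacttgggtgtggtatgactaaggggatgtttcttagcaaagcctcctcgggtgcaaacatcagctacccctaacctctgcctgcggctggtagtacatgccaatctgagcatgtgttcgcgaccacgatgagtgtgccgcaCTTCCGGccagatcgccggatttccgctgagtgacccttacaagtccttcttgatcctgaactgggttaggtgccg
ATP5MC2 (chr12:53676054-53676333, minus strand): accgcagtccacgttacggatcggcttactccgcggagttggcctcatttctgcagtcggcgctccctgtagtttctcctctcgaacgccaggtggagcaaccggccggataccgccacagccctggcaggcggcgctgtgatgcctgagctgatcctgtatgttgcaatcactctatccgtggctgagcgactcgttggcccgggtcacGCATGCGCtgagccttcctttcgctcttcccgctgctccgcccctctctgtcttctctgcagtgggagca

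CYCS and NDUFA5 hold 1 NRF1 word each, ATP5MC2 holds 1 as well, and COX6B1 and UQCRH hold 1 ETS word each. COX5B has all 3 kinds, with 1 NRF1 word, 2 ETS words and 1 SP1 word. So the NRF1 letters stand in front of genes that went in opposite directions. Some genes that moved as far are not shown. NDUFA10, with the highest slope of all subunit genes tested, holds an SP1 word but no NRF1 or ETS word. COX7A2, which rose in complex IV, holds none of these words.

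More subunit genes were higher in HCC827 than in NCI-H1975, and the genes of 1 complex did not all move together. Levels are given as CPM, that is, reads scaled by TMM to a common library size, and a slope gives the log2 change that the fitted line makes between 0 and 100% HCC827. It was tested with edgeR's quasi-likelihood test over the 5 libraries, with p-values adjusted over all 13492 genes tested. A gene is called, and said to have risen or fallen, at an adjusted p under 0.05. Of the 90 genes, 83 passed the filter of 10 reads in 2 libraries, and 51 of these (61.4%) were called, beside 45.7% of all genes tested. Of the 51, 38 rose and 13 fell, which is 45.8% and 15.7% of those tested, beside 23.5% and 22.3% of all genes. The median slope was 0.28 for the subunit genes and -0.035 for all genes. Without the 0:100 library 39 were called, 30 up and 9 down, and 34 of the 51 kept their call whichever library was left out. The test compares 2 RNA preparations, and its error is the scatter of single libraries about a fitted line. As a single preparation of each cell line was used, that error holds technical scatter and any misfit of the line. It holds no spread between cultures. In RNA from many cells, more expressing cells and more RNA per cell cannot be told apart.

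**Figure D1:**
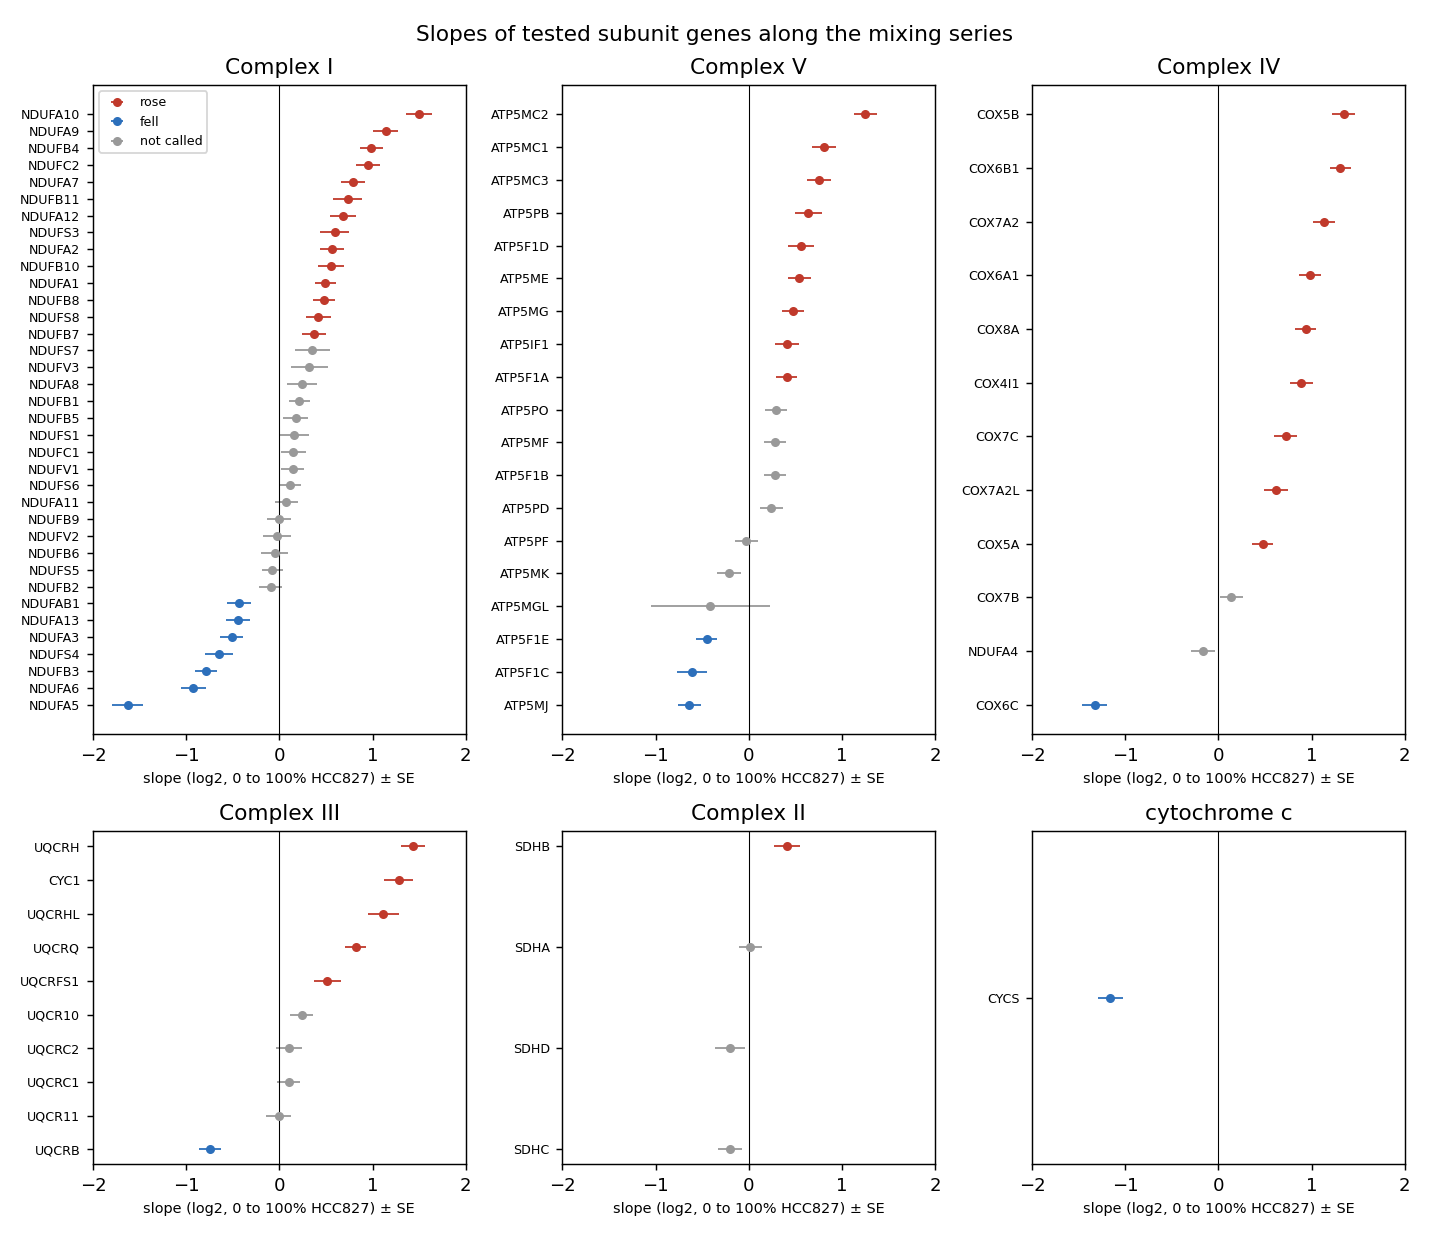
Slope ± SE (log2, horizontal axis) of the tested subunit genes, by complex, with genes that rose in red, fell in blue and were not called in grey. Complex IV genes lie mostly to the right of 0, with COX6C alone far to the left, and complex I genes lie on both sides.

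That excess of rising genes has to be read beside length and scaling, which ran with the series. Most subunit genes make short transcripts, and of all 2518 genes with a read-weighted length of at most 1500 bases, 51.7% were called, 35.7% rose and 15.9% fell. Of the 59 subunit genes of that length, 37 were called, 28 up and 9 down, with a median slope of 0.29 beside 0.32 for all short genes. The short subunit genes thus had a median close to that of short genes at large. Of the 24 longer ones, 14 were called, 10 up and 4 down, with a median of 0.17, beside 44.4% called, 20.6% up, 23.7% down and a median of -0.10 for all longer genes. With a trend on length taken out of the counts, 25 subunit genes rose and 17 fell, 30.1% and 20.5% of those tested, beside 23.3% and 21.1% of all genes, and the medians were 0.093 and -0.0045. Of the 59 short subunit genes, 14 rose and 13 fell in that setting, or 23.7% and 22.0%. Among all short genes the shares were 25.9% and 22.3%, and the medians were 0.024 and 0.041. The short subunit genes thus showed no excess of risers over short genes at large once the trend was out.

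Scaling to library totals instead of TMM moved the median slope of all genes from -0.035 to -0.45 and that of the subunit genes from 0.28 to -0.14, and the split became 18 up and 29 down (all genes 13.3% and 38.1%). The subunit median was above that of all genes under TMM and with the length trend out. It was above on library totals as well, but that scaling moves all slopes by nearly the same amount. The gap there thus repeats the one under TMM and is no separate comparison. The number of subunit genes with a slope above 0 was 58 under TMM, 45 with the length trend out and 34 on library totals. Of the 51 calls, 37 were kept with the length trend out (24 up and 13 down) and 31 on library totals (18 up and 13 down). So the 13 that fell kept their calls in both settings and the losses were among those that rose. Both settings lowered the subunit median, from 0.28 to 0.093 and -0.14, a shift that works for falling calls and against rising ones. The pattern of losses therefore does not show that the falling calls are firmer. The subunit genes were also abundant, with a median of 196 CPM beside 20.9 over all genes tested, and how far abundance or length sets the share called was not tested.

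**Figure D2:**
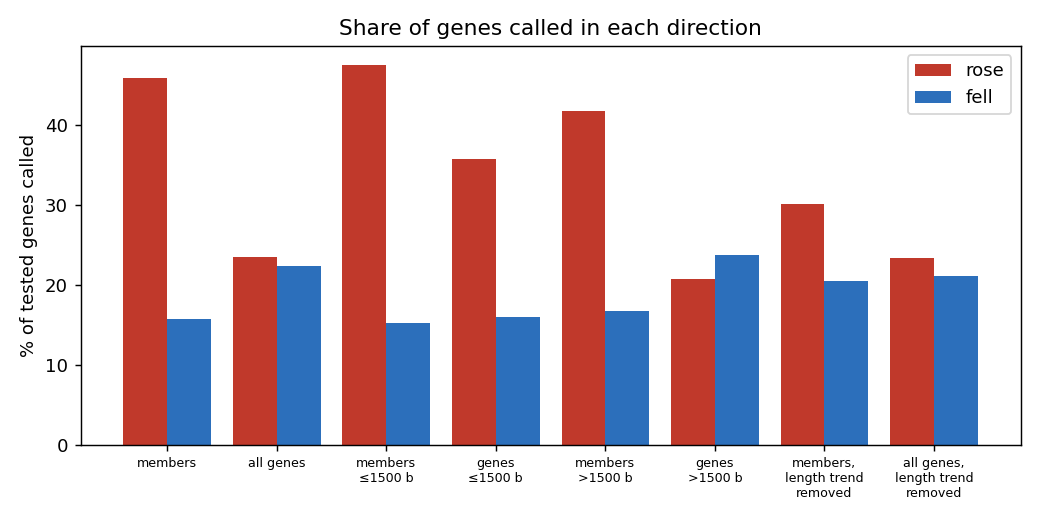
Share of tested genes that rose (red) or fell (blue), in percent, for the subunit genes and for all genes, in all, by length up to or over 1500 bases, and with a length trend taken out. The subunit genes' share of risers is 45.8% beside 23.5%, and 30.1% beside 23.3% once the length trend is out. For short genes alone with the trend out, which is not drawn, it is 23.7% beside 25.9%.

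Complex IV had the highest median slope of the complexes. Of its 19 genes 12 were tested, and 9 rose, 1 fell and 2 were not called, with a median slope of 0.81. With the length trend out, 8 rose and 1 fell (median 0.60), and on library totals 6 rose and 2 fell (median 0.39). Its nuclear-encoded subunits surround and stabilise the catalytic core, which is made in the mitochondrion.

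COX5B, the zinc-binding subunit on the matrix side, was at 249.9 CPM at 100:0, then 359, 442 and 533, and at 662 at 0:100. COX6B1, on the intermembrane side, was at 125, 159, 196, 250.5 and 310.1 CPM in the same order. COX7A2, the ubiquitous form of subunit VIIa, was at 131, 171, 204, 258 and 286 CPM. All 3 stepped up with each rise in HCC827, and no mixed library left the range of the pure ones. Their slopes were 1.35 ± 0.12 (SE, edgeR adjusted p = 6.23e-06) for COX5B, 1.31 ± 0.11 (4.5e-06) for COX6B1 and 1.13 ± 0.12 (1.57e-05) for COX7A2.

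COX6C, a small membrane subunit, went the other way. Its levels were 625 CPM at 100:0, then 485, 391 and 355, and 229 at 0:100, with a slope of -1.33 ± 0.14 (edgeR adjusted p = 1.25e-05). It took 18.4% of the reads of complex IV in the 100:0 library, more than any other subunit there, and 4.59% in the 0:100 library. The read ratio of COX6C to COX5B, 2 subunits of 1 enzyme, was 2.50, 1.35, 0.884, 0.667 and 0.346 along the series. A ratio within a library does not depend on how libraries are scaled, so the change of order between these 2 subunits holds under any scaling.

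The other risers of complex IV were COX6A1 with a slope of 0.98, COX8A with 0.94, COX4I1 with 0.89, COX7C with 0.72, COX7A2L with 0.62 and COX5A with 0.47. COX4I1 is the subunit through which ATP is known to restrain the enzyme, and it rose from 405 to 706 CPM. COX7A2L, which helps join complexes III and IV, and COX5A and COX7C lost their calls on library totals, where their slopes were 0.20, 0.057 and 0.30 (edgeR adjusted p = 0.208, 0.7 and 0.0563). COX5A was lost with the length trend out as well (0.19, edgeR adjusted p = 0.187). COX7B was at 206, 204, 193, 225 and 221 CPM, and NDUFA4 at 240.0, 222, 214, 238 and 200.02. Neither was called, with slopes of 0.14 ± 0.12 and -0.16 ± 0.13, although NDUFA4 was called on library totals (-0.58, edgeR adjusted p = 0.00205). COX5A and COX7C were picked out after their values were seen.

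**Figure D3:**
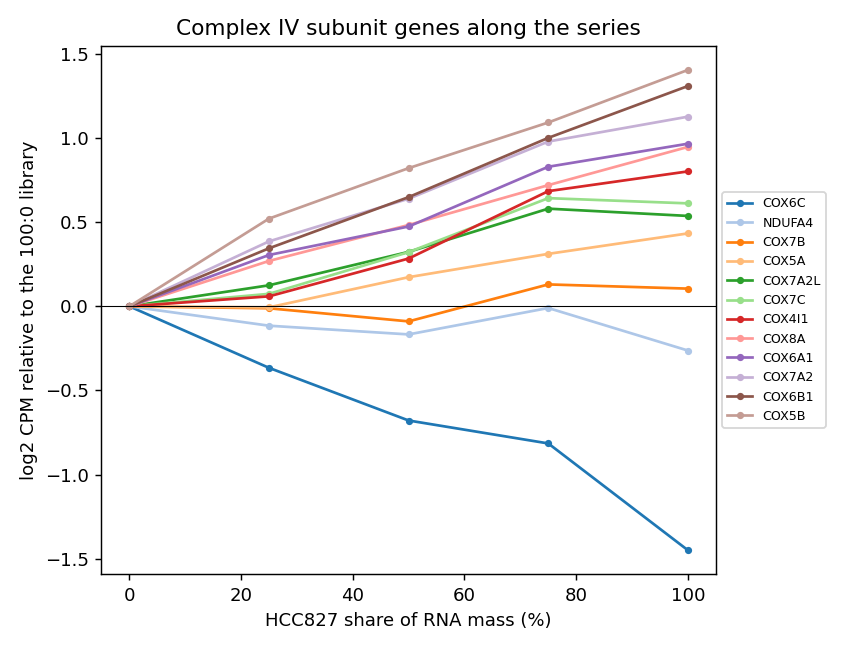
log2 CPM of the 12 tested complex IV subunit genes relative to the 100:0 library (vertical axis) against the HCC827 share of RNA mass in percent (horizontal axis), 1 line a gene and 1 library a point. COX5B, COX6B1 and COX7A2 climb in each step, COX7B and NDUFA4 stay near 0, and COX6C drops.

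Complex III, which passes electrons from ubiquinol to cytochrome c, showed the same kind of split. Of its 10 genes 5 rose, 1 fell and 4 were not called, with a median slope of 0.38. With the length trend out 5 rose and 1 fell (median 0.25), and on library totals 4 rose and 3 fell (median -0.038). UQCRH, the acidic hinge protein that sits beside cytochrome c1, had 220.4, 313, 398, 524 and 594 CPM along the series. CYC1, which is cytochrome c1 itself, had 58.3, 92.2, 107, 121 and 159 CPM. Both rose at each step, with slopes of 1.44 ± 0.13 (edgeR adjusted p = 5.54e-06) and 1.28 ± 0.15 (3.37e-05).

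UQCRB, a small subunit of the matrix side near the ubiquinone site, had 633 CPM at 100:0, then 548, 518 and 456, and 364 at 0:100. It was the complex III gene with most reads and the only one that fell under TMM. Its slope was -0.74 ± 0.12 (edgeR adjusted p = 0.000294). The read ratio of UQCRB to UQCRH was 2.87, 1.75, 1.30, 0.870 and 0.613 along the series, so that the gene of the pair with more reads at 100:0 had fewer at 0:100. UQCRQ rose from 262 to 447 CPM (slope 0.82) and UQCRFS1, the Rieske iron-sulfur protein, from 71.9 to 98.7 (0.52), although the call of UQCRFS1 was lost without the 100:0 library (slope 0.46, edgeR adjusted p = 0.0609) and on library totals (0.10, 0.567). The core proteins UQCRC1 and UQCRC2 were not called, with slopes of 0.10 for each, nor were UQCR10 (0.24) and UQCR11 (-0.0075).

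CYCS fell by 1.16 ± 0.13 on the log2 scale (edgeR adjusted p = 2.65e-05). Its levels were 334 CPM at 100:0, 275, 238 and 206 in the mixtures, and 139 at 0:100, each below the one before. Cytochrome c carries electrons from complex III to complex IV and also triggers caspase activation when it leaves mitochondria. Its docking partner CYC1 rose over the same libraries, and the read ratio of CYCS to CYC1 was 5.73, 2.98, 2.22, 1.70 and 0.874.

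**Figure D4:**
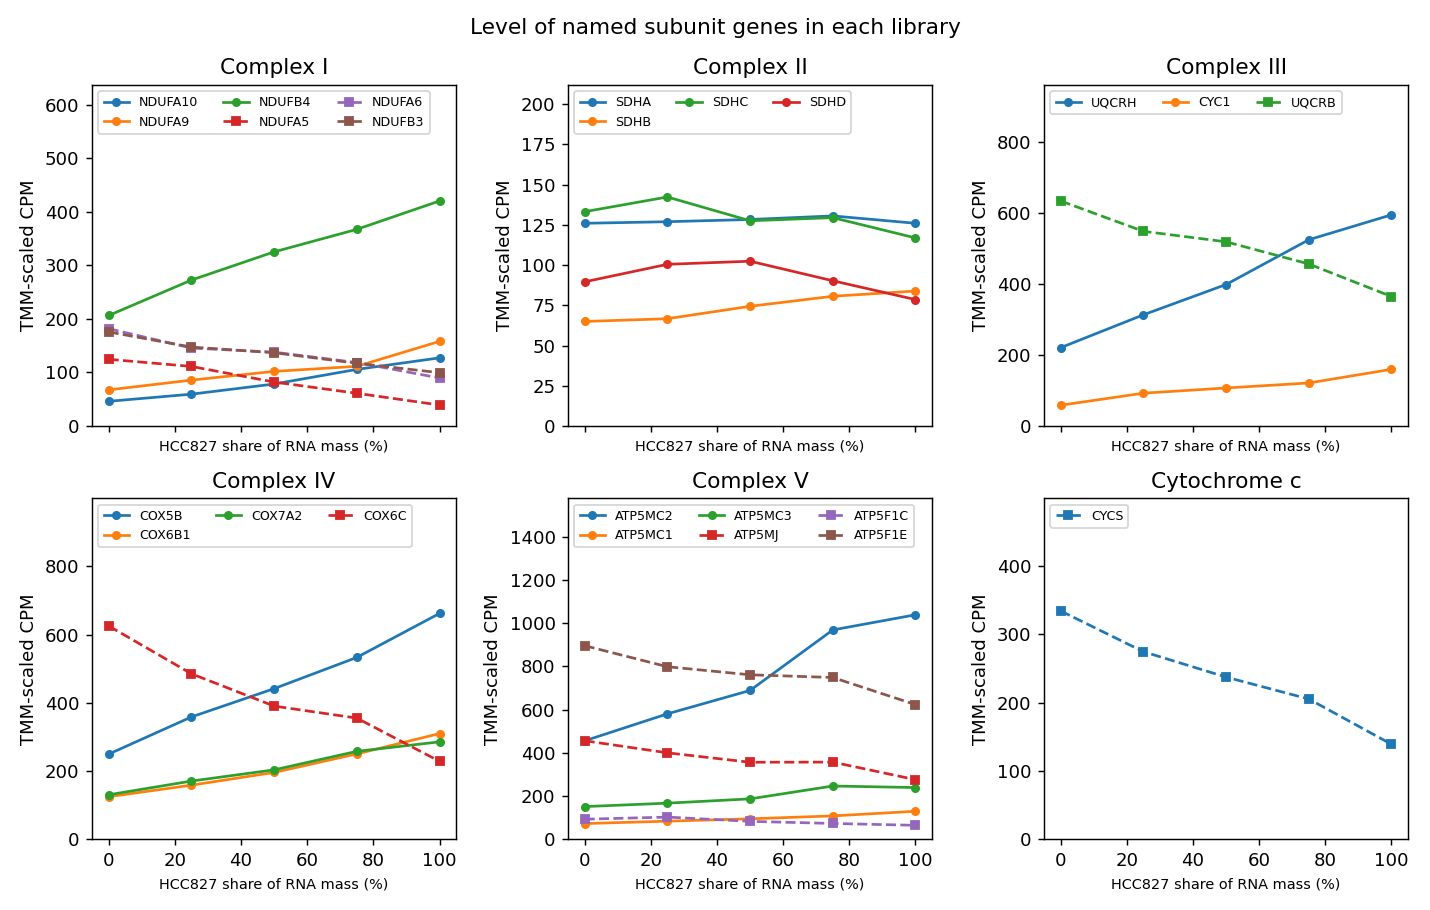
TMM-scaled CPM (vertical axis) against the HCC827 share of RNA mass in percent (horizontal axis) of the subunit genes described, in panels by complex, with 1 library a point, full lines for rising or uncalled genes and broken lines for falling genes. The lines of COX6C and COX5B cross between 25% and 50% HCC827, those of UQCRB and UQCRH between 50% and 75%, and those of complex II run nearly flat.

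Complex I held both the highest and the lowest slope of the subunit genes. Of its 37 genes 14 rose, 7 fell and 16 were not called, with a median slope of 0.18. With the length trend out 7 rose and 9 fell (median -0.042), and on library totals 5 rose and 15 fell (median -0.24), so the balance of directions in complex I changed with these settings.

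NDUFA10, an accessory subunit of the membrane arm with a nucleoside kinase fold, had 46.0, 59.4, 78.3, 106 and 127 CPM along the series. NDUFA9, an accessory subunit at the joint of the membrane and peripheral arms, had 67.4, 85.6, 102, 111 and 158 CPM. NDUFB4, a membrane arm subunit, had 206, 272, 325, 367 and 420.2 CPM. Each rose at every step, with slopes of 1.501 ± 0.14 (edgeR adjusted p = 6.07e-06), 1.14 ± 0.14 (3.42e-05) and 0.99 ± 0.12 (4.54e-05).

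NDUFA5, an accessory subunit of the peripheral arm, had 124, 111, 82.0, 61.0 and 39.1 CPM, and its slope of -1.63 ± 0.17 (edgeR adjusted p = 1.16e-05) was the lowest of all subunit genes tested. NDUFA6, a LYR-motif subunit that binds the acyl carrier protein NDUFAB1, had 182, 145, 138, 118 and 89.6 CPM. NDUFB3, a membrane arm subunit, had 176, 147, 137, 117 and 99.4 CPM. NDUFA6 and NDUFB3 fell by 0.92 ± 0.13 and 0.79 ± 0.12 on the log2 scale (edgeR adjusted p = 0.000125 and 0.000212). The read ratio of NDUFA5 to NDUFA10 went from 2.71 through 1.87, 1.05 and 0.578 to 0.307.

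The core subunits of complex I encoded in the nucleus carry its flavin, iron-sulfur clusters and ubiquinone site. Of 6 of them, a group chosen after the values were seen, 2 rose and 4 were not called, and their slopes ran from -0.023 for NDUFV2 to 0.59 for NDUFS3. NDUFV1, which binds the flavin, was at 369, 341, 336, 374 and 399 CPM, with a slope of 0.14 ± 0.12. NDUFS3 rose from 46.3 to 69.8 CPM and NDUFS8 from 297 to 410.3, and both calls were lost on library totals, with slopes of 0.18 and 0.0036 (edgeR adjusted p = 0.357 and 0.983), and with the length trend out, with 0.31 and 0.12 (0.116 and 0.489). NDUFS3 was also lost without the 100:0 library (0.47, edgeR adjusted p = 0.0913) and NDUFS8 without the 75:25 or the 0:100 library (0.39 and 0.16, edgeR adjusted p = 0.068 and 0.421). Of the 30 accessory subunits, 12 rose and 7 fell. Whether core and accessory subunits differ was not tested.

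Among the other accessory subunits, NDUFC2 rose by a slope of 0.95, NDUFA7 by 0.79, NDUFB11 by 0.73 and NDUFA12 by 0.68, and NDUFA2, NDUFB10, NDUFA1, NDUFB8 and NDUFB7 by 0.56, 0.55, 0.49, 0.48 and 0.37. NDUFS4 fell by 0.65, NDUFA3 by 0.51 and NDUFA13, the complex I gene with most reads, by 0.45 on the log2 scale, and the acyl carrier protein NDUFAB1 fell by 0.43. NDUFA13 had 507, 416, 376, 361 and 371 CPM, and without the 100:0 library its slope was -0.22 (edgeR adjusted p = 0.258). NDUFA3 and NDUFB7 also lost their calls without 100:0 (slopes -0.31 and 0.32), NDUFS4, NDUFB8, NDUFB10 and NDUFB11 theirs without 0:100 (-0.50, 0.43, 0.26 and 0.39), and NDUFAB1 its call without either (-0.34 and -0.37). NDUFB7 was lost without 25:75 and 0:100 as well, with 0.35 each. NDUFB7, NDUFB8, NDUFA1, NDUFB10, NDUFA2 and NDUFA12 were not called on library totals or with the length trend out, nor was NDUFB11 on library totals. The accessory subunits not called, NDUFB2, NDUFS5, NDUFB6, NDUFB9, NDUFA11, NDUFS6, NDUFC1, NDUFB5, NDUFB1, NDUFA8 and NDUFV3, had slopes from -0.094 to 0.32.

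Some genes overlap others, and whether counting used strand is not given in the sources used here. NDUFA7 had 1834 reads and shares its locus with RPS28, on the other strand, which had 67292, and NDUFS3 overlaps CELF1 and PTPMT1. NDUFA2 (2396 reads) overlaps IK (1902), NDUFB8 (2723) overlaps HIF1AN (710) and ATP5PB (1499) overlaps WDR77 (549). NDUFA3, NDUFB6, NDUFB9, NDUFC1, NDUFB11 and ATP5MF also overlap genes with reads. The slopes of all these genes are less certain.

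Complex V rose in 9 of its 19 genes and fell in 3, with 7 not called and a median slope of 0.29. With the length trend out 5 rose and 4 fell (median 0.024), and on library totals 3 rose and 5 fell (median -0.12). The 3 genes for subunit c, ATP5MC1, ATP5MC2 and ATP5MC3, encode 1 and the same mature protein of the rotating ring behind different import sequences. All 3 rose. ATP5MC2 had 456, 580.5, 689, 968 and 1038 CPM along the series, ATP5MC3 had 152, 168, 188, 247 and 239.9, and ATP5MC1 had 73.4, 84.4, 95.35, 109 and 130.2. Their slopes were 1.25 ± 0.12 (edgeR adjusted p = 8.32e-06), 0.76 ± 0.13 (0.000479) and 0.81 ± 0.13 (0.000231).

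The genes that fell were ATP5MJ, ATP5F1C and ATP5F1E. ATP5F1E encodes the epsilon subunit of the central stalk and had 896, 798, 761, 749 and 623 CPM, with a slope of -0.45 ± 0.11 (edgeR adjusted p = 0.00558). ATP5F1C, the gamma subunit that turns inside the catalytic head, had 93.5, 103, 83.6, 73.9 and 65.3 CPM, with a slope of -0.61 ± 0.16 (edgeR adjusted p = 0.00657). ATP5MJ, a small membrane subunit, had 456, 400.3, 357, 358 and 276 CPM, with a slope of -0.64 ± 0.12 (edgeR adjusted p = 0.00116). Without the 0:100 library ATP5F1C and ATP5F1E lost their calls, at slopes of -0.53 and -0.34 (edgeR adjusted p = 0.0741 and 0.0672). The catalytic beta subunit ATP5F1B had 524, 518, 552, 639 and 601 CPM and was not called (slope 0.28 ± 0.12), and the alpha subunit ATP5F1A rose from 191 to 258 CPM (0.41 ± 0.11, edgeR adjusted p = 0.0103). ATP5F1A lost its call without either pure library, at 0.39 without 100:0 and 0.37 without 0:100 (edgeR adjusted p = 0.0518 and 0.0726), and on library totals (-0.0090, 0.953). ATP5F1B was called by DESeq2 (0.29, adjusted p = 0.0447) and limma-voom (0.28, 0.0353).

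Further risers of complex V were ATP5PB, of the peripheral stalk (slope 0.64), ATP5F1D, the delta subunit of the central stalk (0.56), and the membrane subunits ATP5ME (0.54) and ATP5MG (0.47). The inhibitor ATP5IF1, which binds the catalytic head when the enzyme runs backwards, rose as well, at 198, 214, 239, 271 and 250.1 CPM (0.41 ± 0.13, edgeR adjusted p = 0.0185). ATP5IF1 lost its call without 100:0 or 75:25 (0.36 and 0.38, edgeR adjusted p = 0.0886 and 0.0673), and ATP5F1D without 0:100 (0.23, 0.248). On library totals none of ATP5PB, ATP5F1D, ATP5ME, ATP5MG and ATP5IF1 was called, with slopes from -0.0073 to 0.22, and with the length trend out only ATP5PB of these 5 was. ATP5PO, ATP5MF, ATP5PD, ATP5PF, ATP5MK and ATP5MGL were not called. ATP5MGL, a copy of ATP5MG with 67 reads in all, overlaps CYB5R3, which had 2085 reads, so its reads are of uncertain origin.

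Complex II, succinate dehydrogenase, is encoded by nuclear genes alone and also works in the citric acid cycle. SDHA, the flavoprotein, was at 126, 127, 128, 131 and 126 CPM, and the membrane anchors SDHC and SDHD went from 133 to 117 and from 89.6 to 78.6. None of these 3 was called, with slopes of 0.017 ± 0.12, -0.21 ± 0.13 and -0.20 ± 0.16. SDHB, the iron-sulfur subunit, rose from 65.0 to 83.9 CPM, and its slope was 0.41 ± 0.14 (edgeR adjusted p = 0.0276). That call was lost without the 100:0, 75:25, 25:75 or 0:100 library, with adjusted p-values between 0.0511 and 0.106 (edgeR) and kept without 50:50 (0.0459). It was also lost on library totals (slope -0.0096, edgeR adjusted p = 0.959), with the length trend removed (0.13, 0.475), without a filter (0.0896), with a filter of 10 reads in every library (0.0513) and in DESeq2 (0.0938). On library totals SDHC and SDHD were called, at -0.62 each (edgeR adjusted p = 0.00119 and 0.00559), as was SDHA at -0.40 (0.0136).

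Summed over their genes, the complexes stood apart between the pure libraries by different amounts, and the sign for complexes I, III and V depends on the scaling. The summed level of complex IV was 3391, 3608, 3961, 4728 and 4991 CPM along the series, a log2 ratio of 0.56 between the pure libraries (95% counting interval 0.52 to 0.59). Complex III went from 2202 to 2703 CPM, a log2 ratio of 0.30 (0.25 to 0.34). Complex V had a log2 ratio of 0.25 (0.22 to 0.28), complex I 0.17 (0.14 to 0.20) and complex II -0.030 (-0.15 to 0.087). CYCS stood at -1.26 (-1.44 to -1.09). The interval of complex IV lies above those of the other complexes, and CYCS below all. On library totals the log2 ratios were -0.25 for complex I, -0.45 for II, -0.13 for III, 0.14 for IV, -0.17 for V and -1.69 for CYCS, so those of I, III and V turned. These intervals cover counting error only, and no p is given for sums.

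Part of the same enzymes is encoded in mitochondrial DNA. All 13 of those genes rose, with slopes from 0.38 to 1.75, among them MT-CO2 (1.28 ± 0.093), which carries a copper site of complex IV. The ratio of reads on mitochondrially encoded to nuclear-encoded subunits was 2.17, 2.70, 3.0, 3.01 and 3.16 along the series. On library totals, 8 of the 13 rose.

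Genes that build or feed these complexes were counted in the same way, beside the 45.7% of all genes that were called (23.5% up and 22.3% down). Of 59 assembly factors 32 were called, 22 up and 10 down. The smallest adjusted p-values among them were those of DMAC1 (39.1 to 139 CPM, slope 1.70), a complex I factor, UQCC2 (76.7 to 199, 1.35), a complex III factor, and NDUFAF3 (62.2 to 158, 1.29), another complex I factor. Of 13 citric acid cycle enzymes 4 rose and 3 fell, among them IDH3G (1.52) and DLD (-1.41). Of 12 regulators of mitochondrial biogenesis 11 were tested, and 1 rose and 3 fell. ESRRA rose from 28.3 to 65.3 CPM (slope 1.09), and HIF1A (-1.0) and TFAM (-0.65), a mitochondrial transcription factor, fell. Of the factors named with the promoters, NRF1 (0.031 ± 0.42, 16 to 31 reads a library) and GABPA (-0.37 ± 0.39, 19 to 45 reads) were not called. With so few reads, both may still differ between the lines. GABPB1, also of GABP, fell with 14 to 75 reads a library (-1.52 ± 0.49, edgeR adjusted p = 0.0222). On library totals 15 assembly factors rose and 22 fell, so their balance turned, beside 13.3% and 38.1% of all genes. In that setting 2 citric acid cycle enzymes rose and 4 fell, and 1 regulator rose and 5 fell. With the length trend out, 20 assembly factors rose and 16 fell. The counts of these lists were not tested against those of all genes.

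Judged by the pure libraries alone, with no test, 32 of the 83 genes stood at least 1.5-fold apart, 23 higher in HCC827 and 9 lower. That is 38.6%, beside 56.8% of all genes tested (27.4% higher and 29.4% lower); these 2 shares were not tested against each other, and the subunit genes have more reads than most. At 2-fold the number was 14, of which 10 were higher and 4 lower. On library totals 29 stood 1.5-fold apart, 10 higher in HCC827 and 19 lower, so the balance of directions depends on the scaling. The share of all genes was not counted in that setting. The 5 values ran in strict order for 36 of the 83, or 43.4%, beside 28.5% of all genes.

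Several subunits have more than 1 gene, and for some of them nearly all reads fell on 1 gene. COX4I2, COX6A2 and COX7A1, the forms known from lung or from muscle, had 0 reads in every library. Beside 8701 reads of COX4I1, 0 reads of COX4I2 allow it a share of up to 0.0345%, and the limits for COX6A2 and COX7A1 in their sets were 0.0396% and 0.0519%. COX7B2 had 4 reads in all, COX8C 23, COX6B2 29 and NDUFA4L2 23, against 3499 for COX7B, 8149 for COX8A, 3356 for COX6B1 and 3746 for NDUFA4. NDUFA4L2, a gene known to be induced in hypoxia, had 0 reads at 100:0 and 8 at 0:100, and COX6B2, known from testis, had 12 and 5. COX8C overlaps UNC79, which had 22 reads, and NDUFA4L2 overlaps SHMT2, so these few reads are of uncertain origin.

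In other sets the reads were divided among the genes. ATP5MC2 took 66.9% (95% exact binomial interval 65.0 to 68.9) of the subunit c reads at 100:0 and 73.7% (72.3 to 75.1) at 0:100, and ATP5MC3 went from 22.3% to 17.0%. COX7A2 took 53.4% (49.9 to 56.8) of the reads of the COX7A set at 100:0 and 63.3% (60.5 to 66.0) at 0:100, the rest being COX7A2L. Per kilobase of transcript these COX7A2 shares were 80.5% and 86.1%. The intervals of the pure libraries do not meet in either set, but they cover counting error only. The coding sequences of the 3 subunit c genes were identical at 67.1% to 70.5% of aligned positions, and COX7A2 and COX7A2L at 46.2%.

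UQCRH and UQCRHL are a pair where reads could be split between copies. UQCRHL, an intronless copy at chr1:15807169-15809348 on the minus strand (GRCh38), rose too, at 51.1, 66.7, 96.1, 99.5 and 112 CPM (slope 1.12 ± 0.17, edgeR adjusted p = 0.000188). The share of UQCRH in the pair was 81.2% (78.5 to 83.7) at 100:0 and 84.1% (82.4 to 85.7) at 0:100. Their coding sequences, read from the GENCODE v44 transcripts, are 276 bases each, identical at 98.6%, and are shown with the differing bases in capitals.
UQCRH: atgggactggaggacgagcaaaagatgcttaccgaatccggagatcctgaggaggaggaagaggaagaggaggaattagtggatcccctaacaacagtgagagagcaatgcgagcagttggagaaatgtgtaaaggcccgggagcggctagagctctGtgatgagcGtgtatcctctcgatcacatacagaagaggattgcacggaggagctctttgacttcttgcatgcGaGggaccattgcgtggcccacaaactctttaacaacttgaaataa
UQCRHL: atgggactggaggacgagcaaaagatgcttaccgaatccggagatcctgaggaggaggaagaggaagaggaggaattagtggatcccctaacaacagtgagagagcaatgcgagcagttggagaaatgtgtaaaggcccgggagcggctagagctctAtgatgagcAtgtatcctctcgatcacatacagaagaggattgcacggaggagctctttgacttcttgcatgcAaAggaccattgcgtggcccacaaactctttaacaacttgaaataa

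Counted from 1 at the first base of the start codon, the differences of UQCRHL from UQCRH are G158A, G167A, G231A and G233A. With 4 differing bases, a read of the coding region alone with a few errors can be hard to place, so the UQCRHL values are uncertain. Annotated pseudogenes of any kind named after the subunit genes, UQCRH among them, hardly took reads. Of 231, 20 had any, 69 reads in all, or 0.0221% of the reads on the subunit genes.

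At the level of transcripts, 337 of the subunit genes' transcripts were tested and 132 (39.2%) were called, beside 33.6% of all transcripts. Of these 76 rose and 56 fell, beside 17.5% and 16.1% of all. On library totals the balance turned, with 41 up and 93 down, beside 10.3% and 27.9% of all transcripts. By gene, 36 had rising calls alone, 14 falling calls alone, 32 none, and 1, ATP5F1A, had both. Of 218 protein-coding transcripts 55 rose and 41 fell, of 51 retained-intron transcripts 12 rose and 6 fell, and of 34 marked for nonsense-mediated decay 4 rose and 8 fell. Transcripts marked for decay took 8.09% of the subunit genes' reads at 100:0 and 6.69% at 0:100, beside 4.61% and 4.27% over all genes. That pooled share also moves with the reads of single genes. The share within COX6C was 34.8% and 35.0%, and within UQCRB 37.7% and 38.5%, while the reads of both genes fell. Within UQCRH, whose reads rose, it was 42.6% and 41.4%. How far the pooled change reflects isoforms within genes was not tested.

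Isoform usage, the division of a gene's reads among its transcripts, was called in 1 of 74 subunit genes with several tested transcripts (edgeR, Simes adjusted p under 0.05), beside 0.402% of all genes. The gene was ATP5F1A at chr18:46080248-46104334, minus strand (GRCh38), with an adjusted p of 0.0232 (edgeR, Simes). Its retained-intron transcript ATP5F1A-204 took 5.91, 3.36, 2.43, 1.88 and 2.10% of the gene's reads along the series, and its protein-coding transcript ATP5F1A-215 took 13.8, 8.57, 6.44, 6.56 and 5.39%. Both fell, with slopes of -1.29 ± 0.44 and -0.93 ± 0.28, while ATP5F1A-202 rose from 21.7% to 29.6% of reads (0.84 ± 0.17) and ATP5F1A-201 from 19.5% to 27.2% (0.78 ± 0.18). The call was lost in each of the 5 fits that leave out 1 library. SDHA, ATP5ME and NDUFB9 had the next smallest p-values and were not called (edgeR, Simes adjusted p = 0.256, 0.378 and 0.422).

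The subunit genes lie scattered over the genome, and their slopes ran partly with those of other genes nearby. For each of 80 genes with at least 3 tested neighbours within 1 Mb, the median slope of these neighbours was taken. Over the 80 genes Spearman's rho with the gene's own slope was 0.52 and Pearson's r 0.57, beside 0.40 and 0.37 over 12908 other genes. The genes share libraries and some share neighbours, so these are descriptions. Neighbours had a median of the same sign for 25 of 37 genes that rose and 11 of 12 that fell. Signs were not counted for other called genes, so these numbers cannot be read as a trait of the subunit genes.

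UQCRH lies at chr1:46303698-46316776, and 24 of its 28 tested neighbours rose, with a median of 1.42 beside its own 1.44. CYC1, at chr8:144095039-144097525, had 64 neighbours with a median of 0.85, of which 31 rose. Of the genes that fell, CYCS had 4 neighbours with a median of -1.18, COX6C 7 with -1.02 and UQCRB 3 with -1.59. COX7A2 (4 neighbours, median -0.65), ATP5MC3 (5, -0.96) and NDUFA6 (35, 0.21) went against their neighbours, and COX5B had 14 neighbours with a median of only 0.20. Copy number was not measured in these libraries.

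**Figure D5:**
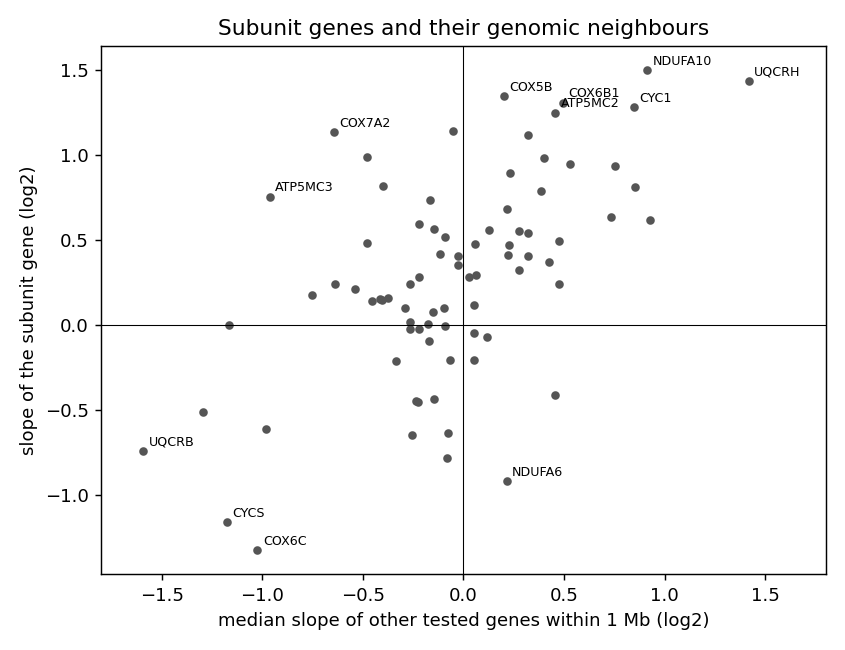
Slope of each of 80 subunit genes (vertical axis, log2) against the median slope of the other tested genes within 1 Mb (horizontal axis, log2), 1 point a gene. UQCRH, CYC1, CYCS, COX6C and UQCRB have the sign of their neighbours' median, and COX7A2, ATP5MC3 and NDUFA6 the opposite sign.

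The promoter letters introduced with the sequences were counted in the 300-base RefSeq windows of the 71 subunit genes that matched a window, and in all 35116 windows. The words were chosen after promoters of these genes had been looked at, and were searched on both strands. None of them contains another. The NRF1 word GCGCATGC stood in 14 of the 71 windows (19.7%), beside 3.05% of all windows and 5.74% of those of 10105 other tested genes. The YY1 word AAGATGGCG stood in 9 (12.7%), beside 1.75% and 4.35%, and the ETS word CCGGAAG in 21 (29.6%), beside 10.3% and 20.7%. The SP1 word GGGGCGGGG stood in 11 (15.5%), beside 15.7% and 30.0%.

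By direction, the ETS word stood in 14 of 33 genes that rose (42.4%), 1 of 11 that fell and 6 of 23 that were not called. COX5B, COX6B1 and UQCRH, printed with their promoters, are among the 14. Over the other tested genes the ETS shares were 20.7% for those that rose and 19.6% for those that fell. The NRF1 word stood in 6 of 33 genes that rose, 4 of 11 that fell, CYCS and NDUFA5 among them, and 4 of 23 that were not called, beside 4.76% of the other tested genes that rose and 5.40% of those that fell. The YY1 word stood in 4 of 33 that rose and 2 of 11 that fell, and the SP1 word in 7 of 33 and 2 of 11. A match is a description of the letters, not a bound site, and no test was made.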

How the data were processed

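The authors deposited 1 table of transcripts per library, with an estimated count of reads per transcript. All but 2 values were whole, and these were rounded. The submitters' processing notes name minimap2 2.24, Salmon 1.9.0 and GRCh38, with no role or order, and the annotation release is not given in the sources used here. Counts were not scaled, and the 161 identifiers listed again were summed. Of 227751 human transcripts 224076, with 98.6% of reads, matched GENCODE v44 and were summed by gene, so reads of unmatched transcripts entered no gene. Depth was 2932250 to 4058751 reads a library. Reads carry no molecular identifiers, so intervals (95%, exact) and the limit of 3 reads at a count of 0 cover counting error only.

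Genes or transcripts with at least 10 reads in at least 2 libraries were fitted in edgeR 4.0.16 (R 4.3.3), with TMM scaling and the HCC827 mass fraction as covariate, by the quasi-likelihood test with Benjamini-Hochberg adjustment. SEs were derived from the F statistics. Isoform usage was tested with diffSpliceDGE and Simes p-values. DESeq2 1.42.0 and limma 3.58.1 gave alternatives, as did other scalings, filters, a length correction, a 2 against 2 contrast and leaving out each library. The fits were checked on data made with known changes. Part of these changes, in level and in isoform usage, was missed, so a gene that was not called may still differ. Counts over promoter letters, neighbours, sums and paralogues are descriptions.

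The members and all gene lists were chosen with earlier results of these data known. The genes named are, in complexes I, III, IV and V, the 3 members called with the largest slopes in each direction (2 in complex III), all of complex II, CYC1, CYCS, the member with most reads in each complex, the paralogue sets, the 4 smallest p-values for isoform usage and up to 3 genes of each related list. Among the regulators, NRF1, GABPA and GABPB1 are given beyond these because of the promoter words. Outside this rule, 10 members were added after their values were seen, among them NDUFS3, NDUFS8, COX5A, COX7C, UQCRQ and ATP5F1B, and further members are given with a slope alone. The values of 1 member are counted in the totals but are not reported here by themselves.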

Additional observations from a re-analysis of the deposited data

How the results depend on the processing

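No paired analysis was possible because each ratio had 1 library. The count of subunit genes called was 51 (38 up, 13 down). It was 18 up and 29 down on library totals, 21 (18 up, 3 down) in the 2 against 2 contrast and 25 up with the length trend removed. Leaving out 1 library gave 39 to 51 called, 30 to 38 up and 9 to 13 down. Transcripts called (132, 76 up, 56 down) became 41 up and 93 down on library totals, 33 down with DESeq2 and 57 (35 up, 22 down) in the 2 against 2 contrast; without 1 library they were 95 to 124, with 57 to 73 up and 31 to 54 down. Isoform usage gave 2 genes by the gene-level F test and 0 to 0 without any 1 library. On library totals the log2 ratios of the summed levels were -0.25 (complex I), -0.45 (II), -0.13 (III), 0.14 (IV), -0.17 (V) and -1.69 (cytochrome c), so those of I, III and V turned. Without the member with most reads they were 0.22 (NDUFA13), 0.040 (SDHC, complex II, turned), 0.58 (UQCRB), 0.52 (COX4I1) and 0.38 (ATP5F1E). At 2-fold 14 genes stood apart. Per kilobase the shares at 100:0 and 0:100 were 80.5% and 86.1% for COX7A2, 94.1% and 95.2% for UQCRH and 69.7% and 75.3% for ATP5MC2. Of the mitochondrially encoded genes 8 rose on library totals, and 2 to 4 regulators were called without 1 library. On library totals 15 assembly factors rose and 22 fell, and 2 citric acid cycle enzymes rose and 4 fell. The cause of these changes was not tested.

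Slopes above 0 numbered 58 of the 83 tested under TMM, 34 on library totals and 45 with the length trend removed. The turned slopes listed here are only those of members named by the rule and the 10 added. Outside these, the called genes NDUFB7 (-0.043) and ATP5IF1 (-0.0073) turned on library totals too. Among the named members, some slopes turned. On library totals they were -0.27 (NDUFV1), -0.26 (NDUFS1), -0.065 (NDUFS7), -0.40 (SDHA), -0.0096 (SDHB), -0.28 (COX7B), -0.14 (ATP5F1B) and -0.0090 (ATP5F1A); of these SDHB and ATP5F1A were called genes. With the length trend removed they were -0.045 (NDUFV1), 0.21 (SDHC), -0.16 (SDHA) and -0.047 (COX7B). SDHA gave -0.010 without a filter and -0.038 with 10 reads in every library. NDUFB9 gave 0.014 with DESeq2's size factors and test, and between -0.23 (without 0:100) and 0.086 (without 25:75) without 1 library, with 0.069 without 100:0. Without 1 library NDUFV2 ran from -0.082 (without 0:100) to 0.078 (without 100:0), NDUFS7 from -0.15 (without 0:100) to 0.57 (without 100:0) and SDHD from -0.47 (without 100:0) to 0.030 (without 0:100). Of 675 slopes of named genes under alternatives, 604 kept their direction and their side of the threshold.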

Other observations

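Per kilobase of read-weighted transcript length, the subunits of 1 enzyme were read at unequal levels. Averaged over the 5 libraries, COX8A had 1010 CPM per kilobase and COX7C 923, while COX7A2L had 55.4. In complex I, NDUFA1 had 726 and NDUFA13 606, while NDUFS1, the large iron-sulfur subunit, had 8.25. In complex V, ATP5ME had 975 and ATP5MC3 62.0, and in complex II, SDHB had 80.2, SDHA 78.8 and SDHC 10.6. The lengths are those of the annotated transcripts to which reads were assigned (12220 bases on average for SDHC and 334 for ATP5ME). A read can be shorter than its transcript, so these levels understate genes with long annotated transcripts by an amount that was not tested. Without the division by length, the order in complex II was reversed, with a mean of 130 CPM for SDHC, 128 for SDHA and 74.1 for SDHB. NDUFA1 then had 306 CPM and NDUFS1 59.4, so much of the inequality depends on the division.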
